A study of Mus musculus with 2 samples.

Results

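The genes examined here encode proteins that break down extracellular ATP, sense ATP or adenosine, and clear adenosine, and they were chosen by name. All 8 were found among the 22036 rows with an Ensembl gene identifier in the deposited count table: Entpd1, Nt5e, Adora2a, P2rx7, P2rx4, Slc29a1, Ada and Adk. They were compared between 2 mRNA sequencing libraries of mouse CD4 T cells, in a series about Foxo1 and TGFβ1 in the fate of Th17 cells, the IL-17-producing helper T cells. CD4 T cells of wild-type mice, taken from spleen and lymph nodes, were cultured on plates coated with anti-CD3 (10 μg/mL) and anti-CD28 (5 μg/mL) and lysed after 24 h. The pathogenic Th17 culture received IL-6 at 20 ng/mL with activin A at 20 ng/mL, and is called the activin A library. The non-pathogenic Th17 culture received the same IL-6 with recombinant TGFβ1 at 2 ng/mL, and is called the TGFβ1 library. Anti-IFNγ and anti-IL-4 were present in both, at 10 mg/mL each as the labels write it. The labels give neither the strain nor the age of the mice, nor whether cells of several animals were pooled. Each condition is 1 library, so no difference has a replicate check, no test between conditions was possible, and each ratio compares these libraries only.

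Extracellular ATP is a danger signal that opens P2X channels on T cells. CD39, the product of Entpd1, removes phosphates from ATP and ADP to leave AMP, and CD73, the product of Nt5e, turns AMP into adenosine. Adenosine raises cyclic AMP through the receptor encoded by Adora2a and thereby restrains T cell activation. It is cleared by uptake through the transporter ENT1 (Slc29a1) and by conversion to inosine by adenosine deaminase (Ada) or to AMP by adenosine kinase (Adk). In CD4 T cells, CD39 and CD73 are best known as surface enzymes of regulatory T cells.

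Counts on named genes summed to 30877656 in the activin A and 33470161 in the TGFβ1 library. The 8 markers of CD4 T cells were all measured, with a summed 2717 and 2724 CPM, the counts scaled to library size. Of 38 markers of 9 other kinds of cell, 4 had a mean of at least 1 CPM, 17 had no count in either library, and the summed level of a list reached 8.65 CPM at most. Th17 markers were present in both and went both ways. The cytokine gene Il17f stood at 394 CPM in the activin A and 587 CPM in the TGFβ1 library, Il17a at 7.86 and 6.19 CPM, and the receptor gene Il23r at 12.8 and 3.44 CPM.

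The members did not all go one way. Both ectoenzyme genes on the route from ATP to adenosine were close to 2-fold higher in the TGFβ1 library. The genes that clear adenosine were mixed. Ada was 1.40-fold higher in the activin A library, Slc29a1 was 1.22-fold higher in the TGFβ1 library, and Adk had a log2 ratio of −0.08. The receptor genes Adora2a, P2rx7 and P2rx4 did not differ beyond counting error. No member reached 2-fold in either direction, against 2.25% in the activin A direction of the 10597 genes whose mean was 1 CPM or more and 1.95% in the TGFβ1 library. At 1.5-fold, 2 of 8 members were higher in the TGFβ1 library, where 5.76% of genes were, and none in the activin A library, where 7.2% were. The median log2 ratio of the members, pathogenic over non-pathogenic, was −0.14, beside −0.0045 for all measured genes. All 8 members passed the 1 CPM filter. Fewer cells that express a gene and less RNA per cell cannot be told apart in such bulk libraries.

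Because Nt5e and Entpd1 had like ratios, the sequence before their start sites is shown, with Ada as the member that went the other way. RefSeq windows (build GRCm38.p6, the assembly also named mm10) were matched for 7 of the 8 members, at 17 start sites, and the 250 bases before each start were searched on both strands. Capitals mark matches to CAGAC (the SMAD-binding CAGA box), GCGTG (the core bound by the aryl hydrocarbon receptor), AATCA (a core of GFI1 sites), TTCNNNGAA (STAT) or GTAAACA (FOXO), and no match overlapped another. The upstream Entpd1 stretch is the last 132 bases of its window, chr19:40612234-40612365, since the bases before it are an exon of the divergent gene Tctn3. The other windows are chr19:40659520-40659769 on the plus strand for Entpd1 and chr2:163750240-163750489 on the minus strand for Ada.
Entpd1, upstream start: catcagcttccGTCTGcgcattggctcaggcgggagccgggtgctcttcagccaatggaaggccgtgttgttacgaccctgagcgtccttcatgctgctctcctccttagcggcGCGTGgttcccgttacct
Entpd1, downstream start: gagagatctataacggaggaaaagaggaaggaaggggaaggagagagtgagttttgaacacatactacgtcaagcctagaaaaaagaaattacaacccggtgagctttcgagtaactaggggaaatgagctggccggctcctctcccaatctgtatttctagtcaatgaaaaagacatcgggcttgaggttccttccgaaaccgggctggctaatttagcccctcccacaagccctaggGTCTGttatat
Ada: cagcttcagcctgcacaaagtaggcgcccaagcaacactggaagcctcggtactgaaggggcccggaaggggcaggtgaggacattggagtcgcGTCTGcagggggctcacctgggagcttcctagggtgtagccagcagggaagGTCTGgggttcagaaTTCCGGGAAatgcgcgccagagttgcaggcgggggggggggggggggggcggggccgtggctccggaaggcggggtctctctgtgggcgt

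The Nt5e window lies inside the gene as GENCODE annotates it, since the GENCODE start is 412 bases before the RefSeq start. The window of the downstream Entpd1 start likewise lies inside its annotated gene. Of the Nt5e window only the CAGA matches are shown, each with 10 bases on either side. They are at chr9:88327530-88327554 and chr9:88327567-88327591 on the plus strand, and begin 69 and 32 bases before the RefSeq start.
Nt5e, farther match: cggggagtgtGTCTGcaagcgggag
Nt5e, nearer match: gaagaggcggGTCTGtccccgcccc

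A CAGAC match was present for 6 of the 7 matched members, Adk being the exception, and in 12 of their 17 windows, whichever way the gene differed. Of all 32817 RefSeq windows of that length, 42.2% hold one. Slc29a1 alone has 8 of the 17 windows, so the windows are not independent sites. The 42.2% is a share of windows, and the share of genes with a match was not computed. An excess in the members can thus not be read from these counts. A GCGTG match was present for Nt5e, Entpd1, Slc29a1 and Adk, in 6 of the 17 member windows, and in 28.1% of all windows. AATCA, found in 33.7% of all windows, was matched in 1 member window, of Adk. TTCNNNGAA, found in 7.01%, was matched in 1 member window, of Ada. GTAAACA, in 3.16% of all windows, was in no member window. These letters are a description of the windows and no evidence of binding.

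Nt5e (ENSMUSG00000032420, chromosome 9, 88327197 to 88372092, plus strand, 9 exons in its longest transcript) had 4510 counts in the activin A and 9705 in the TGFβ1 library, or 146 and 290 CPM. Its level was 1.99-fold higher in the TGFβ1 library, with a 95% counting interval of 1.92 to 2.06. Nt5e ranked 211 from the bottom of the 10597 measured genes by ratio. Of the 4477 genes whose mean reached 50 CPM, 26, or 0.581%, had a ratio as low. Nt5e overlaps no other annotated gene.

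Entpd1 (ENSMUSG00000048120, chromosome 19, 40612366 to 40741602, plus strand, 10 exons) had 222 counts in the activin A and 464 in the TGFβ1 library, or 7.18 and 13.9 CPM. It was 1.93-fold higher in the TGFβ1 library (1.64 to 2.28), and 2.26% of measured genes had a ratio as low. Its interval is wider than that of Nt5e, since it rests on fewer counts. The ratio of Nt5e to Entpd1 counts, which does not depend on how the libraries are scaled, was 20.3 in the activin A and 20.9 in the TGFβ1 library. It differed between them by a factor of 1.03 (0.87 to 1.22), so any difference in their balance was within counting error.

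**Figure D1:**
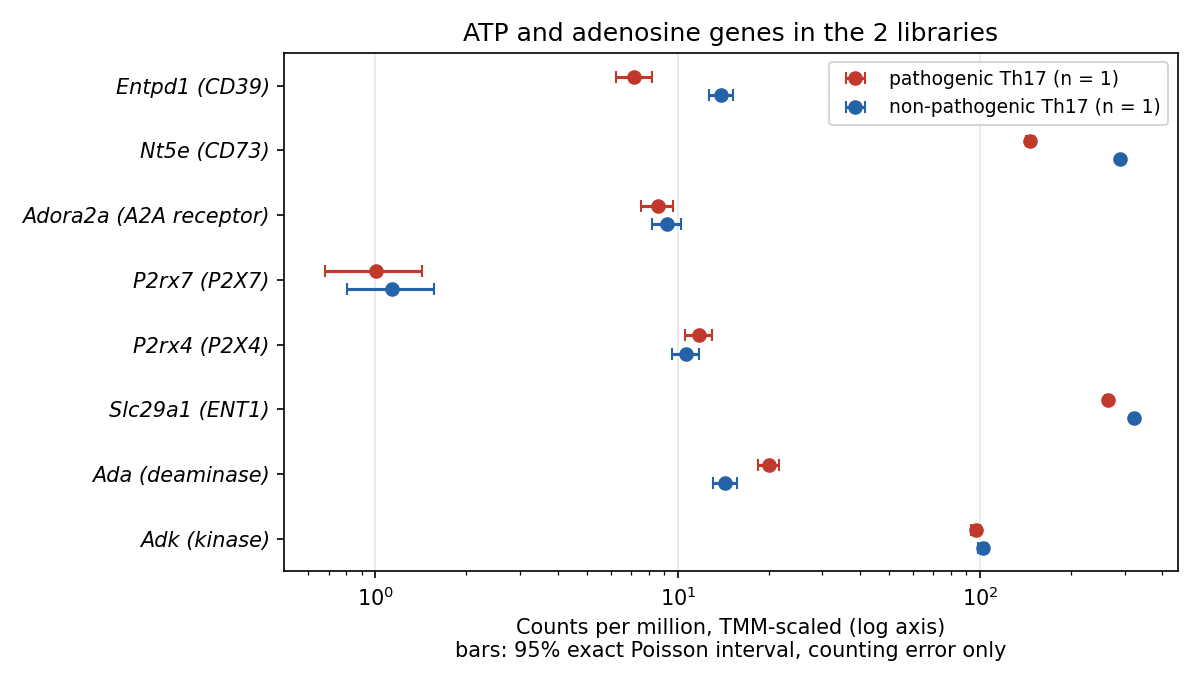
Level of each member in the activin A (pathogenic, red) and TGFβ1 (non-pathogenic, blue) library, in CPM on a log axis. Points are the single library of each condition and bars are exact 95% Poisson intervals. Nt5e at 146 and 290 CPM and Entpd1 at 7.18 and 13.9 CPM have intervals that do not overlap, while the intervals of Adora2a, P2rx7 and P2rx4 overlap.

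Markers of regulatory T cells were looked at beside Nt5e and Entpd1, which such cells express. Foxp3 was 2.37-fold higher in the TGFβ1 library (2.22 to 2.54), at 90.5 against 38.2 CPM. The other 4 markers went both ways, with log2 ratios of −0.15 for Il2ra, −0.21 for Ikzf4, 0.42 for Ctla4 and 0.82 for Ikzf2. The 5 markers summed to 2893 CPM in the activin A and 2904 in the TGFβ1 library, sums that rest mostly on Il2ra (1839 and 2044 CPM) and Ctla4 (968 and 721 CPM). Myeloid cells also carry CD39. The 7 macrophage and monocyte markers summed to 3.88 and 4.58 CPM, with Csf1r, Adgre1 and Cd14 at 0 in both libraries. Itgam had 24 counts in the TGFβ1 library and none in the activin A library, and Itgax, from the dendritic cell list, had 20 and none. The rest of these lists did not share that pattern. In the activin A and the TGFβ1 library, Cd68 had 110 and 123 counts, Lyz2 7 and 6, and Fcgr1 3 and 0. Of the dendritic cell list, Xcr1 had 2 and 6, Zbtb46 2 and 2, and Flt3 and Siglech 0 in both. The part of regulatory or myeloid cells in the Nt5e and Entpd1 ratios was not tested.

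Adora2a (ENSMUSG00000020178, chromosome 10, 75316877 to 75334784, plus strand) had 265 counts in the activin A and 307 in the TGFβ1 library, or 8.57 and 9.19 CPM. Its log2 ratio was −0.10, with an interval of −0.34 to 0.14, so a difference was not detectable at this depth and one of up to 1.27-fold is inside the interval. It was the only adenosine receptor gene of 4 to pass the 1 CPM filter. Adora2b, the low-affinity receptor, had 15 and 10 counts, and the A1 and A3 receptor genes Adora1 and Adora3 had none, which allows up to 0.097 CPM in the activin A and 0.0898 CPM in the TGFβ1 library.

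P2rx7 and P2rx4, which encode ATP-gated cation channels, are neighbours on the plus strand of chromosome 5, separated by 16111 bases that hold 1 other annotated gene, Gm10064. P2rx7 (ENSMUSG00000029468, 122643911 to 122691432), the channel through which high ATP can kill T cells, had 31 and 38 counts, or 1.00 CPM in the activin A and 1.14 CPM in the TGFβ1 library. Its log2 ratio of −0.18 had an interval from −0.91 to 0.54, the widest of the members, and the gene stood just above the 1 CPM filter. An annotated microRNA gene, Mir8115, shares 119 exonic bases with it.

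P2rx4 (ENSMUSG00000029470, 122707544 to 122729738), the more ATP-sensitive channel, had 362 counts in the activin A and 355 in the TGFβ1 library, or 11.7 and 10.6 CPM. Its log2 ratio was 0.14 (−0.08 to 0.36). Per length, in the authors' FPKM, P2rx4 stood at 3.96 and 3.65, far above P2rx7 at 0.175 and 0.201. In both libraries P2rx4 was thus the more abundant of these neighbouring channel genes.

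Slc29a1 (ENSMUSG00000023942, chromosome 17, 45585200 to 45599606, minus strand), the adenosine transporter gene, was the most abundant member, with 8177 counts in the activin A and 10803 in the TGFβ1 library, or 264 and 323 CPM. It was 1.22-fold higher in the TGFβ1 library (1.19 to 1.26). By FPKM the log2 ratio was −0.19 in place of −0.29. The gene shares 275 exonic bases, 6.86% of its exonic length, with the antisense gene Gm17080, and the labels describe no step that would keep the strand.

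Ada (ENSMUSG00000017697, chromosome 2, 163726584 to 163750239, minus strand, 12 exons) was the member with the highest ratio. It had 619 counts in the activin A and 478 in the TGFβ1 library, or 20.0 and 14.3 CPM, and was 1.40-fold higher in the activin A library (1.24 to 1.58). Of measured genes, 9.9% had a ratio at least as high. Adk (ENSMUSG00000039197, chromosome 14, 21052574 to 21448569, plus strand) had 2981 and 3402 counts, or 96.4 and 102 CPM. Its log2 ratio of −0.08 had an interval of −0.15 to −0.01, and it was 0.06, of the other sign, once a trend with transcript length and GC content was removed. The 2 enzymes that clear adenosine thus differed from each other, by a factor of 1.48 (1.30 to 1.69) between the libraries. That factor is from the counts as they stand. With the trend removed, the log2 ratios were 0.41 for Ada and 0.06 for Adk, which are closer together.

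**Figure D2:**
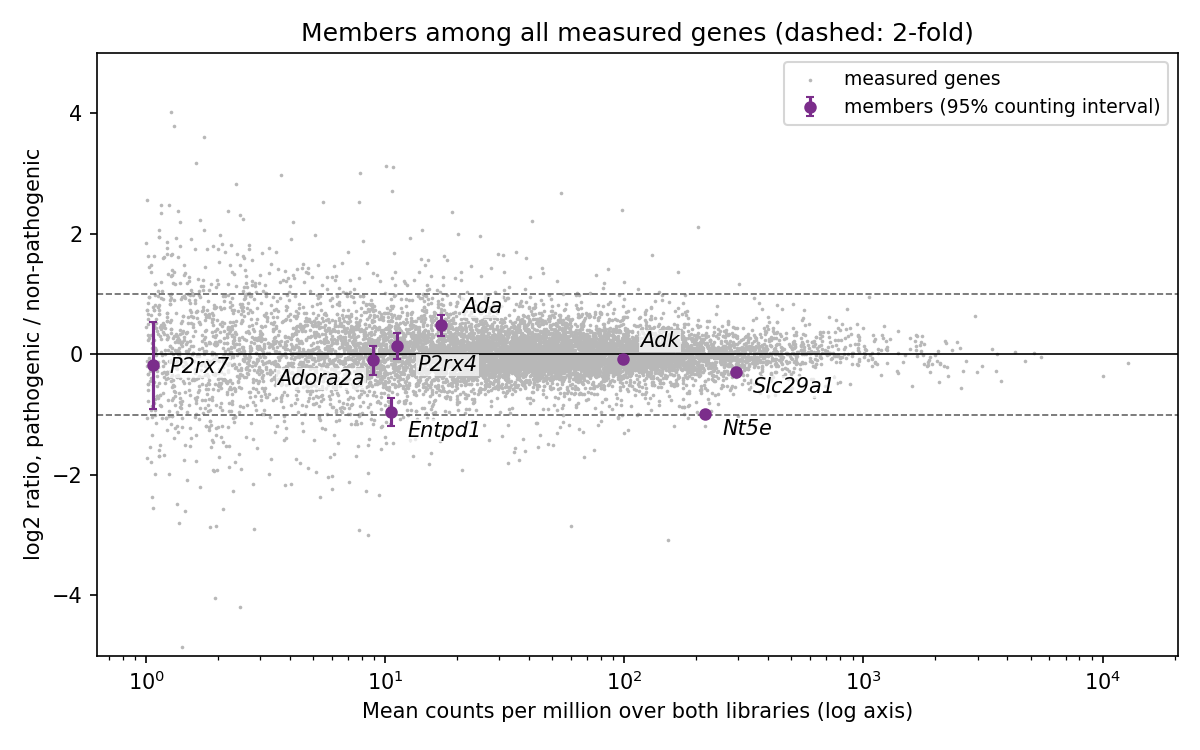
Log2 ratio of each measured gene, pathogenic over non-pathogenic, against its mean CPM on a log axis. Members are purple with 95% counting intervals, other genes are grey, dashed lines mark 2-fold, and 7 genes lie outside the plotted range. Nt5e lies at the lower edge of genes of its abundance, at −0.99, while Adk at −0.08 lies in the middle.

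The counting interval left out a ratio of 1 for 5 of 8 members, as it did for 66.9% of all measured genes (1 of 8 against 33.0% towards activin A and 4 of 8 against 34.0% towards TGFβ1), so at this depth an interval apart from 1 is common. These intervals would be too narrow if counts were not single fragments. Among named genes, a count of 2 was more frequent than a count of 1, by 3.42 times in the activin A and 4.37 times in the TGFβ1 library. Odd counts made up 49.9% and 48.7% of the counts above 0, so counts were not doubled throughout. With all counts halved, 4 of 8 members had such an interval, and Adk was the one that no longer did.

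Ratios between members within a library are free of library scaling, though not of a trend with transcript length and GC content. Of the 28 pairs of members, 17 differed in their balance between the libraries beyond counting error, and 15 did with halved counts. The share over pairs of all measured genes was not computed. Since 66.9% of single genes had an interval apart from 1, these counts are not read as a trait of the members. The widest shift was that of Nt5e against Ada, the enzymes that make and remove adenosine. They are the members with the lowest and the highest ratio, so this pair was bound to shift most. Its interval does not allow for that choice. Nt5e had 7.29 counts for each Ada count in the activin A library and 20.3 in the TGFβ1 library, a factor of 2.79 (2.46 to 3.16). Entpd1 against Ada shifted by 2.71 (2.21 to 3.32), with 0.359 and 0.971 Entpd1 counts for each Ada count. Nt5e against Slc29a1 shifted by 1.63 (1.56 to 1.71) and Nt5e against Adora2a by 1.86 (1.56 to 2.20). With the trend removed, the log2 ratios were −0.94 for Nt5e, −0.87 for Entpd1, 0.41 for Ada, −0.36 for Slc29a1 and −0.19 for Adora2a. The pairs named so far were then each closer together. Among the receptor genes, Adora2a against P2rx4 shifted by 1.18 (0.94 to 1.48), within counting error.

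Levels of different genes were compared per length, in the authors' FPKM, with intervals from counting error. In the activin A library the order was Slc29a1 at 130 FPKM, Adk at 47.2, Nt5e at 32.0, Ada at 10.4, P2rx4 at 3.96, Adora2a at 2.97, Entpd1 at 1.49 and P2rx7 at 0.175 FPKM, and no neighbours in that order had overlapping intervals. In the TGFβ1 library Slc29a1 stood at 148 FPKM and Nt5e, at 63.9, stood above Adk at 50.9. Ada followed at 7.44 FPKM, P2rx4 at 3.65, Adora2a at 3.14, Entpd1 at 2.89 and P2rx7 at 0.201. There the interval of Adora2a (2.80 to 3.51) overlapped both that of P2rx4 (3.28 to 4.05) and that of Entpd1 (2.64 to 3.17). The transcript of the first enzyme of the cascade was thus the scarcer by far, with 21.5 FPKM of Nt5e for each FPKM of Entpd1 in the activin A and 22.1 in the TGFβ1 library.

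The wider pathway was taken from 10 lists of 120 genes in all, members included. Of the 112 other genes, 82 were measured. At 1.5-fold, 9 were higher in the TGFβ1 and 5 in the activin A library, and at 2-fold 4 and 1, with a median log2 ratio of −0.03. Of all measured genes, 5.76% and 7.2% were past 1.5-fold in these directions, and 1.95% and 2.25% were past 2-fold. The 9 are 11.0% of the measured genes, beside 5.76% of all genes. They include genes with close copies. With Art2b and Art2a-ps, Pnp and Pnp2, and P2ry10 and P2ry10b each summed, 6 of 79, or 7.59%, were 1.5-fold higher in the TGFβ1 library, and 2 were 2-fold higher.

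The list of surface enzymes holds those that act on nucleotides, the peptidase gene Dpp4, and Art2a-ps, whose symbol marks a pseudogene. Measured genes of the list stood mostly to one side. Of 14 listed genes 8 were measured, and 6 of them were at least 1.5-fold higher in the TGFβ1 library, with none in the activin A library. Of all measured genes, 5.76% and 7.2% were. The list includes Nt5e and Entpd1 and was chosen with earlier results of these data known, so its lean to one side is no independent support. The list median was −0.89, and −0.06 when the 6 genes under 1 CPM, 3 of them without a count in either library, were added. Without Dpp4, and with the close copies Art2b and Art2a-ps summed, 4 of 6 were at least 1.5-fold higher in the TGFβ1 library and the median was −0.92. Besides Nt5e and Entpd1, the 6 included Cd38, which encodes an NAD-consuming enzyme, with 34 and 94 counts and a 2.52-fold ratio (1.71 to 3.91). Art2a-ps, with 138 and 291 counts, was 1.94-fold higher (1.59 to 2.41). The remaining genes of the list were named after their values were seen. Art2b, which encodes an enzyme that attaches ADP-ribose to surface proteins, P2X7 among them, had 161 and 309 counts and was 1.77-fold higher (1.46 to 2.16). Art2a-ps and Art2b are close copies, so counts could be split between them, and summed they had 299 and 600 counts and a log2 ratio of −0.89. Dpp4, which encodes the surface peptidase CD26, was 1.72-fold higher in the TGFβ1 library (1.47 to 2.01). Enpp1, a nucleotide pyrophosphatase gene, went the other way at 1.39-fold higher in the activin A library (1.15 to 1.68), and the phosphatase gene Alpl had 526 and 532 counts and a log2 ratio of 0.10. Of the other ectonucleotidases of the CD39 family, Entpd2 and Entpd3 had at most 6 counts in a library and Entpd8 had none.

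The 11 nucleotidases of the cell interior were all measured, and none was 1.5-fold apart. Of all genes, 7.2% were in the activin A and 5.76% in the TGFβ1 direction. Their median was 0.05, and the widest ratios were 1.24-fold for Nt5c in the activin A library, which did not hold once the length and GC trend was removed, 1.21-fold for Entpd7 in the TGFβ1 and 1.20-fold for Entpd6 in the activin A library.

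**Figure D3:**
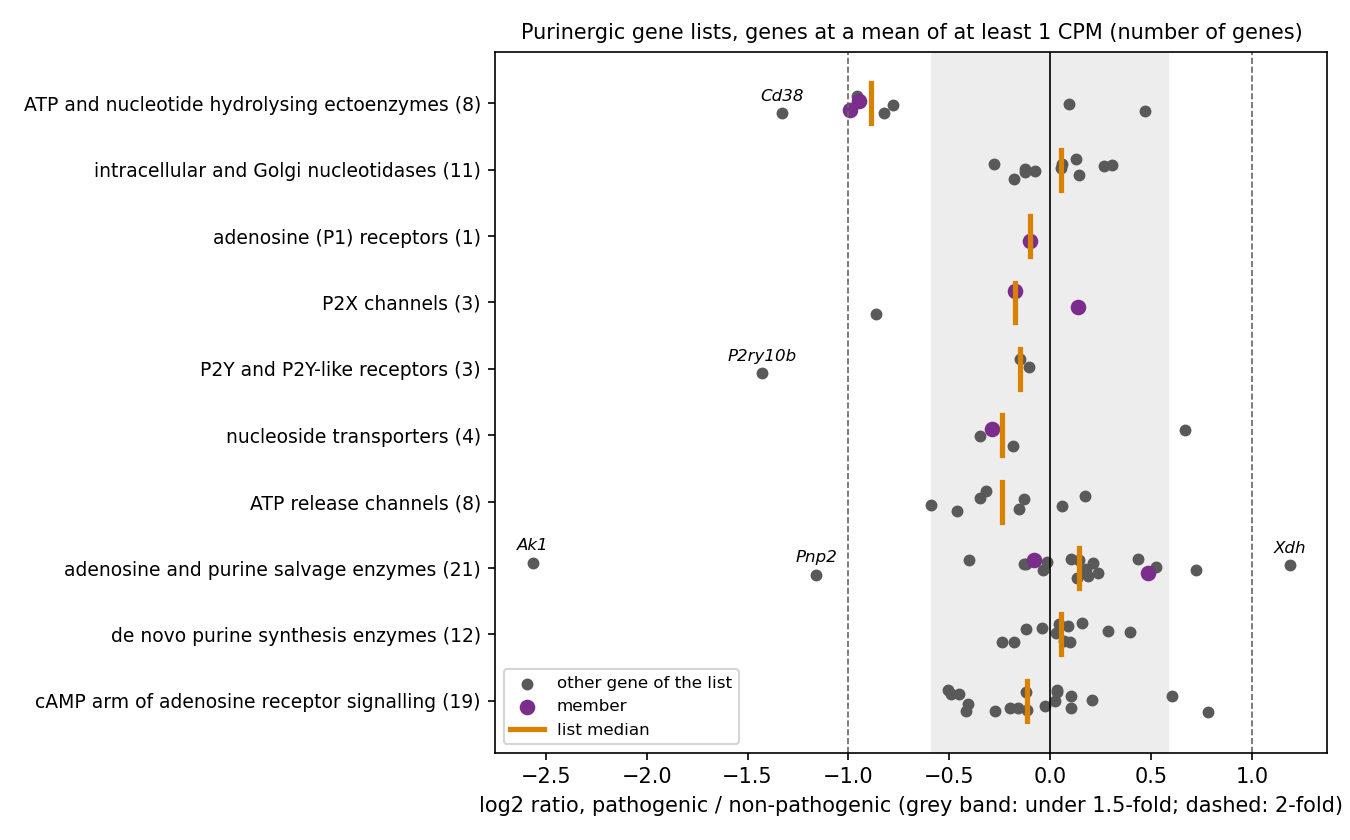
Log2 ratio, pathogenic over non-pathogenic, of each gene with a mean of at least 1 CPM in the 10 purinergic lists. Purple points are members, dark points are other genes, orange bars are list medians, the grey band is under 1.5-fold and dashed lines mark 2-fold; the vertical scatter within a list has no meaning. Ectoenzymes lie mostly to the left, with a median of −0.89, and the other lists centre between −0.24 and 0.14.

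Other receptors of the P2X list and of the P2Y and P2Y-like list were few. P2rx2 had 25 counts in the activin A and 50 in the TGFβ1 library and was 1.82-fold higher there (1.12 to 3.12). P2rx3 and P2rx6, named after their values were seen, had no count in the activin A library and 10 and 9 in the TGFβ1 library. Set against a floor of 3 counts in the activin A library, these counts give ratios of 3.08-fold and 2.78-fold. Those ratios leave out the counting error of the TGFβ1 counts, and the counting intervals start lower, at 2.07-fold and 1.83-fold. P2rx3 and P2rx6 also lie below the 1 CPM filter. With that filter dropped, 1136 genes passed 2-fold towards TGFβ1 and 1192 towards activin A, so such ratios are frequent among low genes. Of the P2Y and P2Y-like receptors, which couple to G proteins, P2ry2 had a log2 ratio of −0.15 (−0.52 to 0.22) and the P2Y-like P2ry10 one of −0.10 (−0.25 to 0.04). P2ry10b, a close relative of P2ry10, was 2.69-fold higher in the TGFβ1 library (2.03 to 3.68) on 63 and 185 counts. The pair summed to 808 and 1050 counts, a 1.20-fold ratio, and since counts could be split between them the value of P2ry10b is uncertain.

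Nucleoside transporters differed among themselves. Slc29a2, which encodes the related carrier ENT2, was 1.59-fold higher in the activin A library (1.42 to 1.79), with 709 and 481 counts. Slc28a2, a sodium-coupled carrier gene, was 1.27-fold higher in the TGFβ1 library (1.14 to 1.41). Slc29a1 lay on the same side as Slc28a2 and was the more abundant by far. The 7 listed transporters summed to 348 CPM in the activin A and 408 in the TGFβ1 library.

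Channels through which cells can release ATP lay within or near 1.5-fold. Panx1, the pannexin of T cells, named after its value was seen, had 1654 and 1717 counts and a log2 ratio of 0.06 (−0.04 to 0.16). Gja1, which encodes connexin 43, was higher in the TGFβ1 library at a log2 ratio of −0.59 (−0.74 to −0.44), just past 1.5-fold. Calhm2 was higher there by 1.38-fold (1.20 to 1.58) and the volume-regulated channel gene Lrrc8c 1.27-fold (1.21 to 1.33). Of the 8 measured, 1 was past 1.5-fold in the TGFβ1 library, where 5.76% of all genes were. A ratio below 1 was found for 6 of the 8, with a median of −0.24. The share of all measured genes below 1 was not computed, and their median was −0.0045.

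Enzymes that salvage adenosine and other purines, the list that holds Ada and Adk, had a median of 0.14 over 21 measured genes. Xdh, the xanthine oxidoreductase gene at the end of purine breakdown, was 2.28-fold higher in the activin A library (1.44 to 3.86), though on 56 and 26 counts. Ak1, a cytosolic adenylate kinase gene, was 5.91-fold higher in the TGFβ1 library (3.74 to 10.8) on 18 and 120 counts. Pnp2 was 2.23-fold higher in the TGFβ1 library (1.83 to 2.76), but it is a close copy of Pnp, the purine nucleoside phosphorylase gene that acts after Ada. Summed, Pnp and Pnp2 had 3078 and 3080 counts and a log2 ratio of 0.11.

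**Figure D4:**
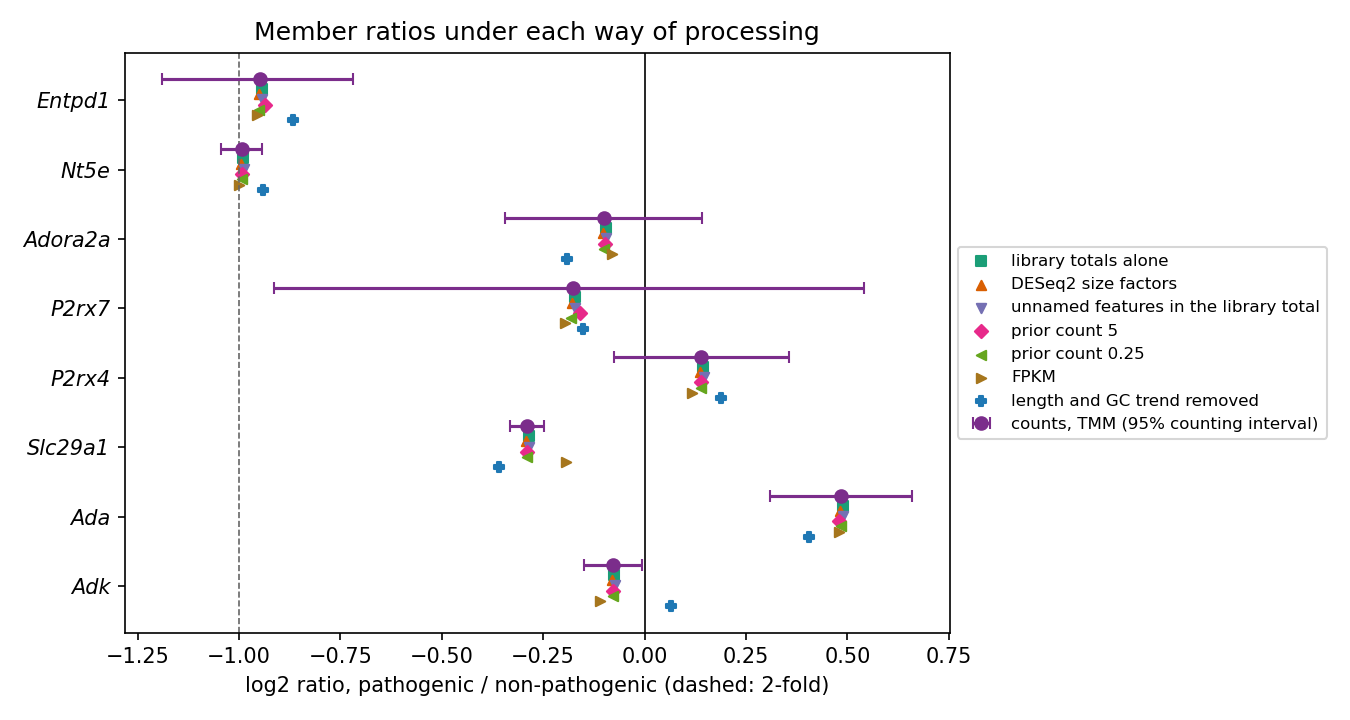
Log2 ratio of each member, pathogenic over non-pathogenic, as reported (purple, with its 95% counting interval) and under 7 other ways of processing. Nt5e stayed between −0.999 and −0.94, Entpd1 between −0.96 and −0.87 and Ada between 0.41 and 0.49, while Adk crossed 0 with the length and GC trend removed.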

How the data were processed

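The authors deposited whole-number counts per gene and, for the same rows, FPKM values (fragments scaled to transcript length and library size), with 1 column for each library per the file headers. The submitters' processing notes name mm10. For aligner, counter and annotation, no name is given in the sources used here. Of 23702 rows, 20 held no feature in that 10 were blank and 10 were text. A further 1646 features had no gene name and took 2.50% of pathogenic and 2.90% of non-pathogenic counts, and these were left out. Positions, transcript length and GC content came from GENCODE M21 for mm10.

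Totals were scaled with TMM factors (edgeR 4.0.16, R 4.3.3), both 1.00 after rounding. The log2 ratio used CPM with a prior count of 1, with a 95% interval (exact, Clopper-Pearson) from the share of counts in the pathogenic library. Intervals of levels are exact Poisson, and those of ratios between members are exact conditional odds ratio intervals (scipy 1.17.1). All cover counting error only, as no molecular identifiers were described and PCR copies are not independent. A gene counted as measured when its mean reached 1 CPM. A difference was counted at 2-fold, and also at 1.5-fold. No p-value was computed. Intervals with all counts halved were added after seeing the data. The calculations were tested on simulated data.

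The members and lists were chosen with earlier results of these data known. Named are all members, every measured receptor, and from each other list the genes past 2-fold and up to 3 with the widest ratios, and all listed regulators. No gene was named for a like pattern, since 2 libraries give each gene 1 ratio. Alternatives were library totals, DESeq2 1.42.0 size factors, unnamed features in the total, prior counts, filters, FPKM, and removal of a length and GC trend (mgcv 1.9.3).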

Additional observations from a re-analysis of the deposited data

How the results depend on the processing

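Over the 8 members and 7 alternatives each, 52 of 56 log2 ratios stayed inside the main counting interval. With the length and GC trend removed, Nt5e was at −0.94, Slc29a1 at −0.36 and Adk, turned in sign, at 0.064. By FPKM, Slc29a1 was at −0.19. Of 644 values of 92 other genes, 24 moved outside the interval, and Nt5c turned, from 0.31 to −0.036 with the trend removed. Ahcyl2, Cant1 and P2ry10 changed sign inside their intervals under 1 alternative each. The cause of these moves was not tested. The counts of members past 1.5-fold and 2-fold were the same under every alternative run. With no filter on low genes, 2-fold was reached by 1192 genes in the activin A and 1136 in the TGFβ1 library, in place of 238 and 207, and 1914 and 1738 at 1.5-fold, in place of 763 and 610. At a mean of at least 5 CPM these were 96 and 101 at 2-fold and 466 and 384 at 1.5-fold, and 7 members remained, as P2rx7 lies below. Over all purinergic lists the 2-fold counts were 1 in the activin A and 4 in the TGFβ1 library, 6 and 7 with no filter, and 0 and 1 at 5 CPM. With close copies summed, added after seeing the data, these were 1 and 2. At 1.5-fold, 5 were higher in the activin A and 11 in the TGFβ1 library, 11 and 15 with no filter, 4 and 7 at 5 CPM, and 5 and 8 with close copies summed. The ectoenzyme median was −0.064 with no filter, which adds 6 genes of at most 6 counts in a library, and 1 of these then passed 1.5-fold in the activin A library. No paired analysis was possible because each condition has 1 library. Depth limits P2rx7 most, with 31 and 38 counts.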

Other observations

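Factors that have been reported to regulate ectonucleotidase genes were listed beside the members, and all 10 were measured. Gfi1, a zinc finger repressor reported to act on Entpd1 and Nt5e in Th17 cells, was the one past 2-fold in the activin A library, at 2096 against 487 counts and a 4.64-fold ratio (4.21 to 5.14). Foxp3 was the one past 2-fold in the TGFβ1 library. Of all measured genes, 2.25% passed 2-fold in the activin A and 1.95% in the TGFβ1 library. Stat3, the transducer of IL-6 signals, was 1.26-fold higher in the TGFβ1 library (1.23 to 1.29), Foxo1 1.42-fold (1.37 to 1.46) and Ahr, of the aryl hydrocarbon receptor, 1.37-fold (1.33 to 1.41). Runx3 was 1.49-fold higher in the activin A library (1.39 to 1.61). The TGF-β signal transducers Smad2 and Smad3 had log2 ratios of −0.18 and 0.05, Hif1a −0.14 and Sp1 0.17. By FPKM the Smad2 value was −0.45. Whether any of these acts on the members here was not tested.

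Genes of the cyclic AMP arm, through which the Adora2a receptor signals, went both ways, with a median of −0.11 over 19 measured genes. Of the 19, 2 were past 1.5-fold in the activin A library, where 7.2% of all measured genes were. Crem, a cyclic AMP-responsive factor gene, was 1.72-fold higher in the activin A library (1.59 to 1.87) and the adenylyl cyclase gene Adcy6 1.52-fold (1.39 to 1.66). The phosphodiesterase gene Pde4d was 1.42-fold higher in the TGFβ1 library (1.31 to 1.54). Enzymes that build purines anew had a median of 0.06 over 12 measured genes. None was past 1.5-fold, beside 7.2% of all genes in the activin A and 5.76% in the TGFβ1 library. Pfas at 1.32-fold (1.28 to 1.36) and Impdh1 at 1.22-fold (1.16 to 1.28) were higher in the activin A library. Prps1 at 1.18-fold (1.14 to 1.22) was higher in the TGFβ1 library.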
